A study of Mus musculus with 11 samples.

Results

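The comparison described here set mouse embryonic stem cells that carried a reintroduced mutant CTCF, H373R, under auxin against the same cell line without auxin, across all expressed genes. It rests on 6 of the 11 libraries of the series, 3 of H373R cells and 3 of untreated cells, and covers 16420 genes that passed a filter on low counts. All libraries came from EN52.9.1, a single mouse embryonic stem cell line whose endogenous CTCF protein carries an auxin-inducible degron, a tag that lets auxin trigger destruction of the protein. The cells were grown in serum with leukemia inhibitory factor, which holds them in a pluripotent state.

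The control group, titled EV and UT and called untreated here, received no auxin, so that its tagged CTCF was not targeted, and its genotype is labelled wild-type. The H373R group received 500 µM auxin and carried the mutant protein, whose name denotes a histidine-to-arginine substitution; its library titles read ZF4. Another 5 libraries served as reference points: 3 of cells given auxin and full-length CTCF (titled FL) and 2 of cells titled EV that were given auxin. The labels do not say what EV stands for, how long auxin was applied, how strongly the reintroduced proteins were expressed, whether they were carried by 1 clone, or whether replicates were separate cultures. P-values therefore measure the spread between these libraries, which may be technical. H373R cells differ from untreated cells in auxin, in loss of the tagged protein and in the reintroduced protein at the same time, and these cannot be told apart within this comparison.

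CTCF is a zinc finger protein that binds a long GC-rich DNA sequence and stops the cohesin ring as it extrudes chromatin loops, so that loops end at CTCF sites facing each other. Bound near a start site it can also activate a gene by bringing it to a distant enhancer, as at the clustered protocadherin genes, and between an enhancer and a promoter it can insulate, as at imprinted loci. The title of the series presents CTCF as a protein that also binds G-quadruplexes, four-stranded structures of guanine-rich DNA.

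Total counts of the 6 libraries ran from 21005545 to 29902246, and of all 11 from 13465241 to 29902246. Untreated replicate 1 stood apart: its counts differed from those of untreated replicates 2 and 3 by a chi-square of 16 and 15.1 per degree of freedom, against 1.96 to 5.06 for every other pair of replicates, and its deviations from the group mean correlated across genes with GC content (r = 0.559). The main counts were therefore also taken without it. Levels are in CPM, counts relative to library size after TMM scaling. A level written with ± is the mean and SD over the libraries of its group (n = 3), and a lone level is a group mean. A log2 fold change is H373R over untreated unless another group is named, and comes with its standard error (SE).

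Of the 16420 genes, 7292 differed between H373R and untreated cells at an adjusted p under 0.05 (44.4%), 3665 of them higher (22.3%) and 3627 lower (22.1%) in H373R cells. Most changes were small. The median size of a called change was 0.421 on the log2 scale, and 840 genes changed at least 2-fold (5.12%), 429 higher and 411 lower. At larger sizes falls outnumbered rises: 78 genes fell and 41 rose at least 4-fold, and 16 fell and 7 rose at least 8-fold. In 6890 of the 7292 called genes (94.5%) no H373R library overlapped any untreated library, against 51% of all tested genes. Without untreated replicate 1, 8927 genes were called, 4403 higher and 4524 lower, and 6920 of the original 7292 (94.9%) were among them in the same direction. GC content and length moved with direction: the median GC content of transcripts was 53.7% for genes called higher and 47.1% for those called lower, and the median exon length 3635 and 5851 bases. Removing trends with GC and length brought these medians to 50.3% and 50.5% GC, and left 5955 of the calls (81.7%) in place.

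**Figure D1:**
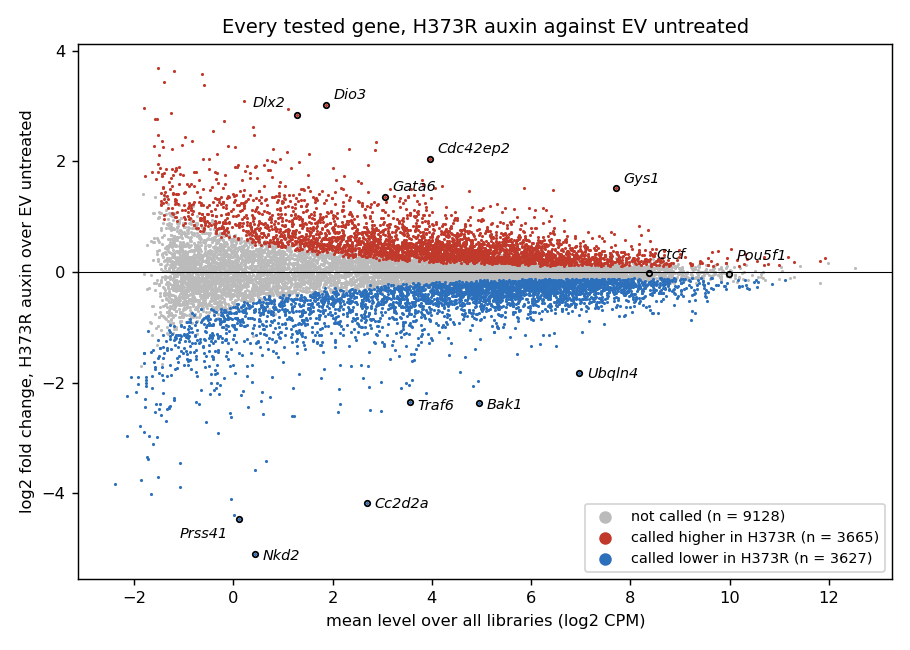
Each point is 1 of the 16420 tested genes; the x axis is its mean level over all libraries in log2 CPM and the y axis its log2 fold change, H373R over untreated, with called genes coloured by direction. Changes of moderate size were spread over all levels, while the furthest points lay below 0, where Nkd2 and Prss41 fell furthest among the named genes; Ctcf and Pou5f1 lay near 0.

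Ctcf itself (gene at chr8:105636568-105682922, plus strand) gave 294, 344 and 339 CPM in the untreated and 330.4, 326 and 306 CPM in the H373R libraries. The groups overlapped (log2 fold change -0.021, SE 0.057, adjusted p = 0.793), and FL and EV auxin cells gave 337 and 361 CPM on average. Auxin acts on the protein, and the files do not separate endogenous from reintroduced transcripts, so this count checks neither the degradation nor the substitution.

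The 12 largest falls among genes with a mean of at least 1 log2 CPM were led by Cc2d2a, which encodes a protein of the ciliary transition zone (chr5:43662346-43740972, plus strand). It stood at 32.3, 32.9 and 35.3 CPM in untreated cells and at 1.85, 2.08 and 1.69 CPM in H373R cells, a fall of 18-fold (log2 fold change -4.17, SE 0.11, adjusted p = 1.96e-12). All H373R libraries were far below all untreated ones, FL cells lay between (6.87, 7.21 and 6.32 CPM), and EV auxin cells, at 2.4 and 3.4 CPM, were above H373R cells (adjusted p = 0.0128). Nkd2, an antagonist of Wnt signalling that binds Dishevelled, fell from 8.59, 9.2 and 9.14 CPM to 0.258, 0.141 and 0.346 CPM (log2 fold change -5.10, SE 0.21, adjusted p = 1.99e-10). It was low in the other auxin groups too, at 1.68 CPM in FL and 0.373 CPM in EV auxin cells.

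Bak1 and Traf6 were also among the largest falls. Bak1, which encodes a pro-apoptotic BCL2 family protein of the mitochondrial outer membrane (chr17:27019810-27029009, minus strand), gave 92.3, 85.8 and 90.4 CPM in untreated and 16.3, 16.6 and 18.8 CPM in H373R libraries (log2 fold change -2.37, SE 0.072, adjusted p = 8.82e-12). Traf6, a ubiquitin ligase of Toll-like and interleukin receptor signalling (chr2:101678429-101701669, plus strand), gave 27.1, 31.3 and 31.4 CPM against 5.85, 6.37 and 5.42 CPM (log2 fold change -2.35, SE 0.09, adjusted p = 7.61e-11). Neither gene showed any overlap between the groups. For both, H373R cells were below FL cells (Bak1 30.2 CPM, adjusted p = 1.18e-05; Traf6 13.8 CPM, adjusted p = 2.43e-06) and did not pass the test against EV auxin cells (15.9 and 6.09 CPM).

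The other large falls were of genes with varied roles. Cep135, a centriole protein, fell from 23.8 ± 1.68 to 5.54 ± 0.206 CPM, and Itga9, an integrin alpha chain, from 17.5 ± 0.831 to 3.12 ± 0.22 CPM. Both were also lower in H373R than in EV auxin cells (9.15 and 4.34 CPM, adjusted p = 0.000889 and 0.0156). Ndufaf3, an assembly factor of respiratory complex I, fell from 11.8 to 2.06 CPM, and B3glct, a glucosyltransferase acting on thrombospondin repeats, from 11.5 to 2.19 CPM. Dusp12, an atypical dual-specificity phosphatase, fell from 40 to 8.78 CPM, Mob3b, of the MOB family, from 8.91 to 1.47 CPM, Hddc3 from 6.33 to 1.03 CPM and Comtd1 from 9.8 to 2.29 CPM. The log2 fold changes of these 6 genes ran from -2.60 for Hddc3 to -2.11 for Comtd1.

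B3glct and Cep135 hold, next to their start site, the CTCF core pattern, a short run with the most conserved bases of the known CTCF site. The promoters of 5 such genes are shown for that reason. They are the 5 largest falls among genes called lower at least 2-fold whose untreated mean was at least 4 CPM and whose first-listed promoter held the CTCF core pattern, a rule set after the data had been seen. Each is the 250 bases before the start site on the gene's strand, from RefSeq (GRCm38.p6), with the match in capitals.
Prss41 (chr17:23844157-23844406, minus strand): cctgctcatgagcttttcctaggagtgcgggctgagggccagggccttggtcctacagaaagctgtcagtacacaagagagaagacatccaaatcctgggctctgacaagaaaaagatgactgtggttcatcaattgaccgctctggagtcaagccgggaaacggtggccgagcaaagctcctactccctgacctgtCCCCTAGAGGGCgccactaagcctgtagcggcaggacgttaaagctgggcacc
Dennd6b (chr15:89196475-89196724, minus strand): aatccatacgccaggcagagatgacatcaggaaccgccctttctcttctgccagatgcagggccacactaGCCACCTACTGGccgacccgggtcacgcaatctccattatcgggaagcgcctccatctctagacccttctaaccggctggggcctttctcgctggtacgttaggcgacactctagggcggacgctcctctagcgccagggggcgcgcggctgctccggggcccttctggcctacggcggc
B3glct (chr5:149677980-149678229, plus strand): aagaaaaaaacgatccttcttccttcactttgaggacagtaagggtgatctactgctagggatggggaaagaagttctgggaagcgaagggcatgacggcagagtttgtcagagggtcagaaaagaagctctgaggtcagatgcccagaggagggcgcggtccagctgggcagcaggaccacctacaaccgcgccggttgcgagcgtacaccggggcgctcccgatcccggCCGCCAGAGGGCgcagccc
Cep135 (chr5:76588449-76588698, plus strand): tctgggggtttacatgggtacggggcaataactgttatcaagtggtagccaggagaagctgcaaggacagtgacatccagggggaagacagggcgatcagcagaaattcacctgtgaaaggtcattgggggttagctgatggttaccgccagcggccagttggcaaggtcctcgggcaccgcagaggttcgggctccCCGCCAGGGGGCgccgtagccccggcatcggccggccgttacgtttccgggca
Ube2cbp (chr9:86464917-86465166, minus strand): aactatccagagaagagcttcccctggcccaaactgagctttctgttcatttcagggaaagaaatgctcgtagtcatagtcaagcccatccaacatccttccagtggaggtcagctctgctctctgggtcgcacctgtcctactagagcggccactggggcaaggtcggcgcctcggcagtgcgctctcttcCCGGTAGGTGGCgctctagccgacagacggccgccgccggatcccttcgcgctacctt
The match began 53 bases before the start site in Prss41 and in Cep135, 58 in Ube2cbp, 19 in B3glct and 180 in Dennd6b, where it reads on the opposite strand. Prss41, a serine protease gene, stood at 5.53, 6.31 and 6.32 CPM in untreated and 0.172, 0.33 and 0.308 CPM in H373R cells (log2 fold change -4.45, SE 0.20, adjusted p = 4.48e-10). Dennd6b, whose product belongs to a family of Rab activators, went from 4.81 to 0.222 CPM (adjusted p = 6.21e-09), and Ube2cbp from 6.04 to 1.43 CPM (adjusted p = 1.5e-07). Prss41 kept at most 8 counts in any H373R library, so its fold carries a wide counting error.

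Across all genes with a promoter in the RefSeq table (11769 of 16420, matched by symbol, first-listed promoter, 250 bases before to 50 after the start), the share holding the CTCF core pattern on either strand grew with the size of the fall. It was 20% of genes lower at least 4-fold (10 of 50), 9.77% of those lower 2- to 4-fold (21 of 215) and 3.22% of those lower under 2-fold. It was 1.86% of genes not called, 1.2% of those higher under 2-fold, 0.743% of those higher 2- to 4-fold (2 of 269) and 3.7% of those higher at least 4-fold (1 of 27). Over all genes higher at least 2-fold it was 1.01% (3 of 296), beside 2.21% of all tested genes and 1.41% of all 27025 promoters in the table. A looser pattern for the same site was in 34.0% of genes lower at least 4-fold and 22.3% of those lower 2- to 4-fold. It was in 13.8% of genes lower under 2-fold and 12.1% of genes not called. Among genes higher at least 2-fold it was in 14.5%, against 12.8% of all tested genes. The low share among large rises therefore held for the core pattern and not for the looser one. The letters CCCTC are a shorter part of the known site that overlaps many other sequences. They were in 82.0% of genes lower at least 4-fold and 71.6% of those lower 2- to 4-fold. Over all genes lower at least 2-fold the share was 73.6%, against 84.1% of genes higher at least 2-fold and 76.2% of all tested genes. Without untreated replicate 1 the core pattern was in 10% of genes lower at least 2-fold, and with GC and length trends removed in 12.4%, against 11.7% in the reported fit. A match is a run of letters and not a measured binding site, and 90.8% of the 2358 tested genes with several listed promoters had the most upstream one listed first.

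The G-quadruplex pattern, 4 runs of at least 3 G with 1 to 7 bases between them on either strand, was distributed otherwise. Promoters of genes lower at least 4-fold held it in 16.0% (8 of 50), of genes lower 2- to 4-fold in 26.0%, of genes not called in 25.9%, of genes higher under 2-fold in 32.1% and of genes higher at least 2-fold in 33.8% (100 of 296). Genes lower under 2-fold held it in 27.7% and all genes lower at least 2-fold in 24.2% (64 of 265), beside 27.8% of all tested genes. Median promoter GC content was 60.3% in genes lower at least 4-fold and 61.0% in genes higher at least 2-fold, and its part in the shares was not tested.

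**Figure D2:**
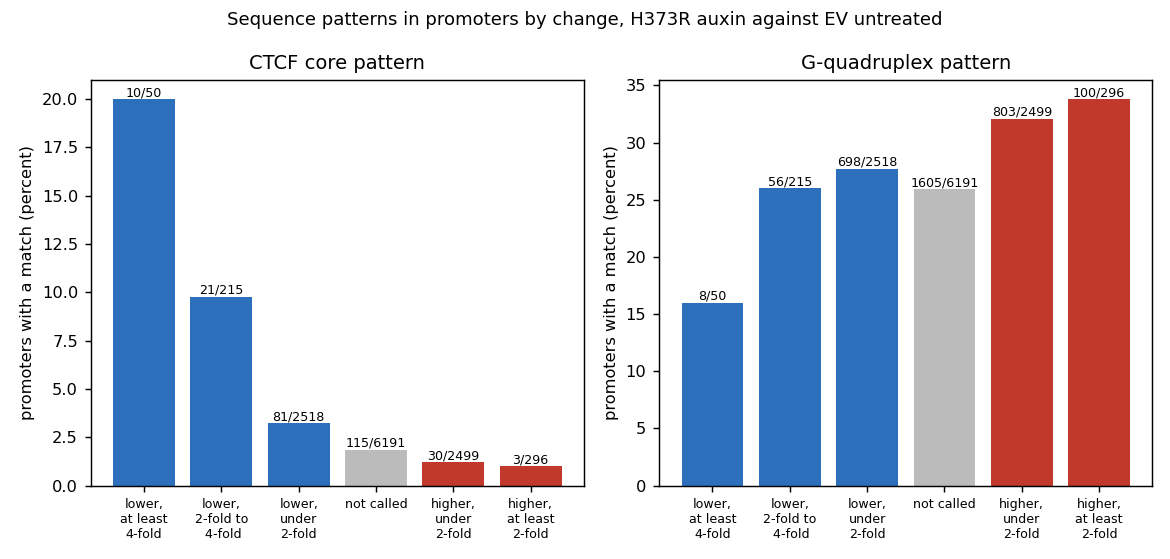
Bars give the percentage of promoters with a match, with the count of promoters above each bar; genes are classed by direction and size of change, H373R against untreated (blue lower, grey not called, red higher). The CTCF core pattern is in 20% of promoters in the leftmost class and 1.01% in the rightmost, which joins all genes higher at least 2-fold, while the G-quadruplex pattern is lowest, at 16.0%, in the genes that fell at least 4-fold. Over all genes lower at least 2-fold, a class not drawn, the share with the G-quadruplex pattern is 24.2%.

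The largest rises were found at low levels and were smaller than the largest falls. Dio3, which encodes the deiodinase that inactivates thyroid hormone and lies in the imprinted Dlk1-Dio3 domain (chr12:110279068-110281097, plus strand), gave 1.06, 0.832 and 1.18 CPM in untreated and 7.96, 8.77 and 8.81 CPM in H373R libraries (log2 fold change 3.03, SE 0.14, adjusted p = 5.21e-10). H373R cells were also above FL cells (4.15, 3.57 and 3.52 CPM, adjusted p = 2.2e-05) and EV auxin cells (5.08 and 5.98 CPM, adjusted p = 0.0023). Dlx2, a homeobox gene of forebrain and branchial arches (chr2:71543408-71546754, minus strand), went from 0.866, 0.734 and 0.735 CPM to 5.98, 5.09 and 5.85 CPM (log2 fold change 2.84, SE 0.15, adjusted p = 2.51e-09), and its neighbour Dlx1, 18641 bases away by start sites, was at 3 counts or fewer in every untreated library and at least 5.88-fold higher in H373R cells. H373R cells exceeded FL cells in both genes (adjusted p = 7.47e-06 and 0.0117).

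Nutm1, a gene normally restricted to the testis, went from 0.433, 0.392 and 0.661 CPM to 4.47, 3.16 and 4.08 CPM (log2 fold change 2.95, SE 0.21, adjusted p = 5.89e-08). Cdc42ep2, an effector of the small GTPase Cdc42, rose from 6.87 ± 0.793 to 28.5 ± 0.845 CPM, above FL cells at 16.7 and EV auxin cells at 18.9 CPM (adjusted p = 2.37e-05 and 0.0003). The matrix protein gene Ecm1 rose from 2.76 ± 0.271 to 14.1 ± 1.01 CPM and was likewise above both auxin groups (8.11 and 9.25 CPM). The carbonic anhydrase gene Car3 rose from 1.83 to 8.51 CPM, the carboxypeptidase inhibitor gene Lxn from 2.82 to 13 CPM, the class I histocompatibility gene H2-Q10 from 2.9 to 11.4 CPM and Serpinb9, an inhibitor of granzyme B, from 1.51 to 5.55 CPM. H2-Q10 belongs to a family of near-identical genes, so its count is uncertain. The developmental regulators Rax and Foxi3 and the little-studied Zcwpw2 completed the 12, with log2 fold changes of 2.14, 1.99 and 2.17. No H373R library overlapped an untreated one in any of the 12, as the rule that chose them required.

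**Figure D3:**
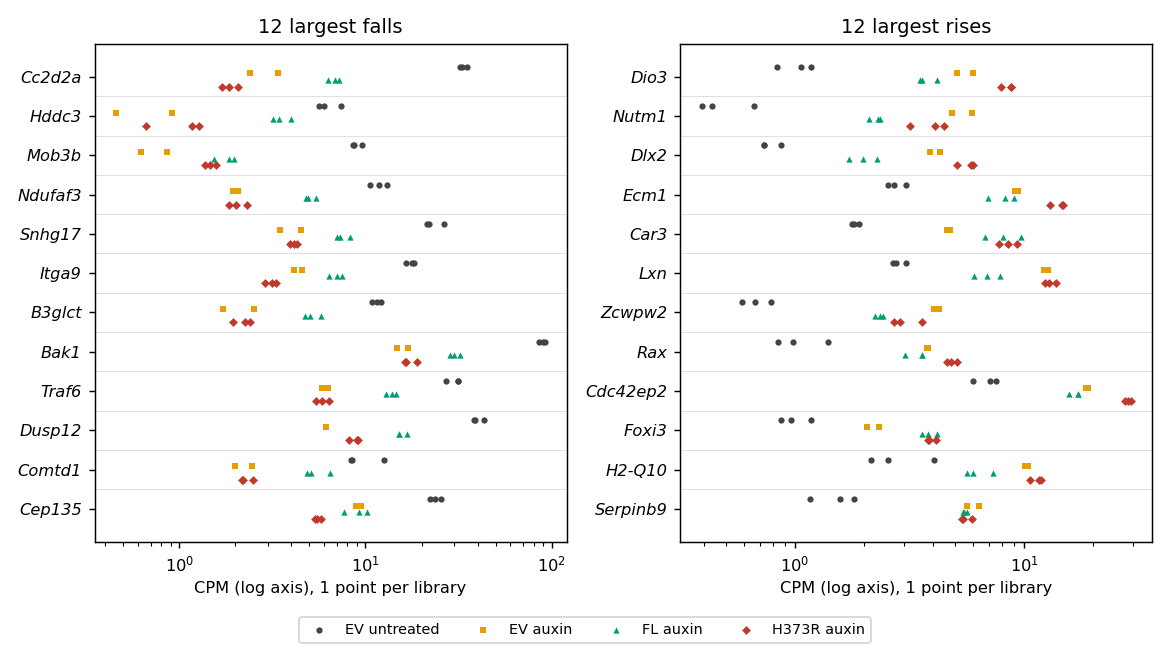
Each point is 1 library, by group, on a log axis of CPM, for the 12 largest falls (left) and 12 largest rises (right) among genes with a mean of at least 1 log2 CPM. H373R and untreated points never overlap, by the rule that chose the genes; FL points lie between the H373R and untreated points for Cc2d2a, Bak1 and Dlx2, and among the H373R points for Car3, Foxi3 and Serpinb9.

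Peg13 and Atoh1 had 3 counts or fewer in every untreated library and a mean of at least 1 CPM in H373R cells; no gene showed the opposite at that level. Peg13, a paternally expressed non-coding RNA within the Trappc9 gene, stood at 1.21, 1.42 and 1.08 CPM in H373R cells, at least 8.39-fold above untreated cells, with 0.286, 0.38 and 0.255 CPM in FL and 0 and 0.0415 CPM in EV auxin cells. H373R cells were above both FL and EV auxin cells (adjusted p = 0.000916 and 3.13e-05). Atoh1, a transcription factor of sensory hair cells and secretory gut cells, stood at 1.03, 1.37 and 1.04 CPM, at least 7.8-fold above untreated cells, and at 0.659 and 1.35 CPM in FL and EV auxin cells.

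The 8 most abundant genes that changed at least 2-fold were chosen by TPM, a unit that allows for gene length, and 2 of them fell and 6 rose. Ubqln4, a ubiquitin-like shuttle to the proteasome (chr3:88553758-88569725, plus strand), fell from 291, 278 and 281 CPM to 82.1, 82.2 and 76.8 CPM (log2 fold change -1.82, SE 0.048, adjusted p = 1.96e-12), or from 257 to 72.2 TPM. Gys1, the muscle-type glycogen synthase (chr7:45434844-45456619, plus strand), rose from 110.3, 96.6 and 99.8 CPM to 296, 297 and 283 CPM (log2 fold change 1.51, SE 0.056, adjusted p = 6.27e-11), or from 80.3 to 227 TPM. Cdkn2aipnl fell from 136 ± 1.49 to 63.9 ± 1.87 CPM. The tight junction gene Cldn4, the piRNA factor gene Mael, the Lutheran antigen gene Bcam and the secreted Wnt antagonist gene Sfrp2 each rose just over 2-fold (log2 fold changes 1.12, 1.16, 1.02 and 1.16).

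Because CTCF separates neighbouring domains, the nearest tested protein-coding gene was taken for each of the 32 largest or most abundant changes described so far; the median distance between start sites was 23.95 kb. Of these neighbours 19 were called, 13 in the same and 6 in the opposite direction, and 4 changed at least 2-fold. Of all tested protein-coding genes 47.7% were called. Of all tested genes 44.4% were called, 22.3% higher and 22.1% lower, and 5.12% changed at least 2-fold. The start sites of Lxn and of Gfm1, the mitochondrial elongation factor, lie 33830 bases apart, a distance that does not show whether the genes overlap. Lxn rose, and Gfm1 fell from 139, 155 and 159.8 CPM to 60.5, 61.2 and 58 CPM (log2 fold change -1.33, SE 0.058, adjusted p = 3.94e-10). In the carbonic anhydrase cluster Car3 rose, and Car2 fell from 64.2 to 43.9 CPM and Car13 from 12.7 to 5.23 CPM (adjusted p = 2.88e-06 and 6.06e-08). The start site of Ubqln4 lies 684 bases from that of Lamtor2, which gave 72.8 and 69.8 CPM (adjusted p = 0.5). That of Zcwpw2 lies 240 bases from that of Azi2, at 47.9 and 44.2 CPM (adjusted p = 0.189).

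Genes of CTCF partners showed small changes in both directions. For this and every later gene list, the counts stand beside 22.3% higher and 22.1% lower among all tested genes. Of 25 tested genes for CTCF, its paralog and the cohesin machinery, 6 were higher and 11 lower (median -0.17, against 0.0048 over all genes). Nipbl, the cohesin loader, fell from 156, 191 and 192 CPM to 125, 112 and 108 CPM (log2 fold change -0.64, SE 0.086, adjusted p = 2.78e-05), and Pds5a, a cohesin regulator, from 294 ± 23 to 218 ± 8.94 CPM, though the call for Pds5a was lost when GC and length trends were removed (adjusted p = 0.541). The ring genes parted: Smc1a fell 1.16-fold, Stag1 rose 1.24-fold, and Stag3, the meiotic ring subunit, rose from 69.9 ± 2.79 to 97.2 ± 4.4 CPM. Ctcfl, the germline paralog of CTCF, fell from 3.05 to 1.8 CPM. Without untreated replicate 1, 7 genes of the list were higher and 16 lower. Of 14 tested helicases reported to unwind G-quadruplexes, 3 were higher and 8 lower (median -0.22). Atrx, a chromatin remodeller, fell from 219.7 ± 27.4 to 136 ± 10.2 CPM and Dhx9 from 627 ± 55 to 468 ± 18 CPM, Wrn, the Werner syndrome helicase, fell by 1.38-fold, and Dna2 rose from 98.3 ± 2.2 to 141 ± 2.56 CPM. For Dhx36 the means were 153 and 149.7 CPM (adjusted p = 0.752).

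**Figure D4:**
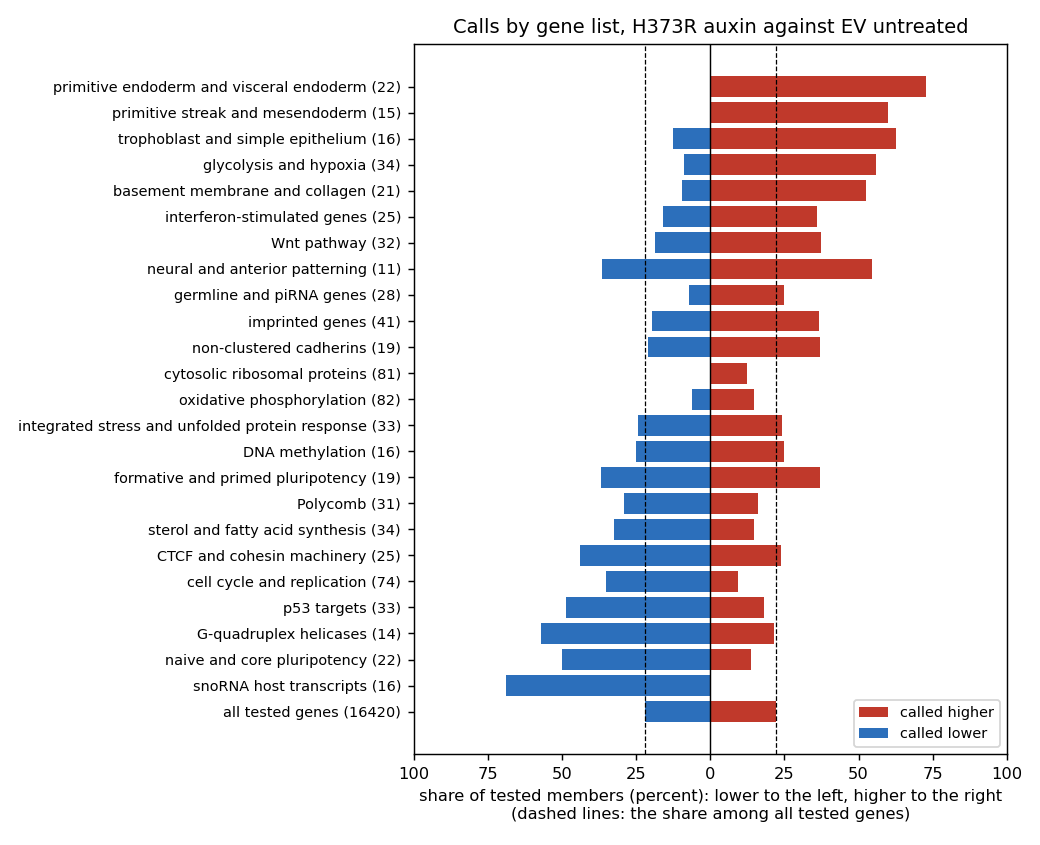
Bars give the percentage of tested members of each list called higher (right) or lower (left) in H373R cells; the number of tested members follows each name, and dashed lines mark 22.3% and 22.1%, the shares among all 16420 genes. Endoderm, streak and trophoblast lists lean to the right and snoRNA host transcripts to the left, while neural genes reach past both lines.

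The pluripotency network shifted by small amounts. Pou5f1, the core factor OCT4, gave 1014, 1028 and 992 CPM in untreated and 989.6, 999.5 and 988 CPM in H373R cells and did not pass the test (log2 fold change -0.027, SE 0.043, adjusted p = 0.639). Of 22 naive and core pluripotency genes, 3 were higher and 11 lower (median -0.13), and 5 and 15 with GC and length trends removed. Zfp42, the naive marker REX1, fell from 704, 766 and 746 CPM to 521, 524 and 514 CPM (log2 fold change -0.51, SE 0.044, adjusted p = 4.19e-07), Nanog from 725 ± 67.3 to 579.6 ± 11.5 CPM (adjusted p = 0.000284) and Nr5a2 from 165 ± 15.9 to 124 ± 2.16 CPM. Sox2 and Esrrb fell by 1.09- and 1.12-fold. Klf4 rose from 341 ± 11.3 to 448 ± 10.8 CPM and Klf5 fell from 222 ± 18.6 to 171 ± 3.18 CPM. Formative and primed genes were split, with 7 higher and 7 lower of 19: Pou3f1 and Sox3 rose by 1.81- and 1.9-fold and Dnmt3b by 1.3-fold, while Lef1, the nuclear partner of beta-catenin, fell from 13.8, 13.2 and 14.2 CPM to 5.46, 6.27 and 6.88 CPM (log2 fold change -1.14, SE 0.092, adjusted p = 1.82e-07). Otx2 fell by 1.17-fold, and Fgf5 stayed below 1 CPM in both groups.

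Among genes of DNA methylation, 4 of 16 were higher and 4 lower, near the 22.3% and 22.1% of all tested genes. The methylcytosine oxidases led the falls: Tet2 gave 110.0, 131 and 129.7 CPM in untreated and 60.4, 54.8 and 53.6 CPM in H373R cells (log2 fold change -1.13, SE 0.078, adjusted p = 3.71e-08), and Tet1 315, 367 and 352 CPM and 236, 186 and 203 CPM (log2 fold change -0.72, SE 0.083, adjusted p = 5.73e-06). Tet2 was also lower than in FL cells (71.9 CPM, adjusted p = 0.0169) and EV auxin cells (94.2 CPM, adjusted p = 7.08e-05). The methylation cofactor Dnmt3l rose by 1.21-fold. Without H373R replicate 3, 2 genes of the list were lower. Of 31 Polycomb genes 5 were higher and 9 lower, 6 and 14 without untreated replicate 1, and 9 and 13 with GC and length trends removed. Suz12, a core subunit of the complex that methylates histone H3 on lysine, fell from 415 ± 46 to 273 ± 5.95 CPM, and its accessory subunits Jarid2 and Aebp2 fell by 1.43- and 1.44-fold. The chromobox gene Cbx8 and the ring-finger gene Bmi1, both of the other Polycomb complex, rose 1.78- and 1.58-fold from under 6 CPM.

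Genes of extraembryonic endoderm, the tissue that forms the yolk sac, were higher in H373R cells. Of 22 tested genes of primitive and visceral endoderm 16 were higher and none lower (median 0.86), and 16 were higher without untreated replicate 1. Gata6, a founding regulator of primitive endoderm, gave 4.19, 4.26 and 4.19 CPM in untreated and 10.2, 10.8 and 11.3 CPM in H373R cells (log2 fold change 1.36, SE 0.085, adjusted p = 1.42e-08), and Gata4 5.49, 4.36 and 5.51 CPM and 13.3, 12.9 and 13 CPM (log2 fold change 1.34, SE 0.091, adjusted p = 3.2e-08). Sox17, Sox7 and Foxa2 rose 2.81-, 2.05- and 2.26-fold, all from under 2 CPM. Genes of the visceral endoderm's uptake of maternal nutrients followed: Dab2, an endocytic adaptor, rose from 13 ± 2.33 to 27.5 ± 1.8 CPM, Cubn, the receptor cubilin, from 18.4 ± 2.94 to 40 ± 5.42 CPM and Apoe from 231 ± 44.9 to 366 ± 21.5 CPM. Ttr, the thyroid hormone carrier, had at most 5 counts in an untreated library and 0.86, 0.943 and 0.885 CPM in H373R cells. Hnf4a gave 9.33 and 8.91 CPM and did not pass the test. Against FL cells 7 of the 22 were lower in H373R cells and none higher, and against EV auxin cells 15 were higher: Gata6 stood at 18.1 CPM in FL and 4.48 CPM in EV auxin cells. In bulk libraries more cells of this kind and more RNA per cell cannot be told apart.

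Summed over all 23 endoderm genes, the level was 431, 360.3 and 347 CPM in untreated and 622, 553 and 608 CPM in H373R libraries, 1.57 times as high on average, with 696, 669.5 and 697 CPM in FL and 390.2 and 398 CPM in EV auxin libraries. In a list of basement membrane genes, which endoderm secretes in quantity, and other collagens, 11 of 21 were higher and 2 lower. The laminin and collagen IV part moved the way of the endoderm genes, with 8 of 12 higher and 0 lower. Of the 9 other collagens 3 were higher and 2 lower. Their summed level was 438, 403 and 404.5 CPM in untreated and lower, at 391, 377 and 380 CPM, in H373R libraries. Col4a2 rose 1.44-fold, Col4a1 from 102 ± 2.75 to 133 ± 7.69 CPM and Lama1 from 109.5 ± 4.56 to 136 ± 13.7 CPM, both below FL cells (194 and 196 CPM, adjusted p = 0.000109 and 0.000146). Nid2 and Sparc rose 1.32- and 1.24-fold.

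Genes of other lineages gave mixed results. Of 15 tested streak and mesendoderm genes 9 were higher and none lower, and of 16 trophoblast and simple epithelial genes 10 were higher and 2 lower. Without H373R replicate 3, 5 streak genes were called higher. Members at low levels could pass the count filter through the group in which they are high, so these counts describe only the genes tested. Over all 17 streak genes the summed level was 28.1, 26.5 and 25.9 CPM in untreated and 36.3, 36.4 and 38.9 CPM in H373R libraries. Over all 20 trophoblast and simple epithelial genes it was 562, 546 and 543 CPM against 676, 654 and 677 CPM. Neither pair of groups overlapped. The 10 regulators among the 20 did overlap, at 175, 167 and 160 CPM against 162, 159 and 163.5 CPM. The 10 keratins and markers did not, at 387, 378 and 382 CPM against 514, 495 and 513 CPM. Foxc1, Pdgfra and Eomes rose 5.2-, 1.64- and 1.35-fold, T (brachyury) 2.08-fold, and Mixl1 by 0.42 on the log2 scale, a call lost without untreated replicate 1 (adjusted p = 0.0987). Krt18, a keratin of simple epithelia, rose from 24.8 ± 1.04 to 41.9 ± 1.68 CPM and Gata2 from 6.68 ± 0.409 to 11.6 ± 0.902 CPM, Krt8 and Tfap2a rose 1.39- and 2.34-fold, while Tfap2c, which the stem cells express already, fell from 122 ± 3.67 to 98.8 ± 1.88 CPM. Of 11 tested neural genes 6 were higher and 4 lower: Nkx6-1 rose from 0.215 to 1.31 CPM, and Pax6 and Map2 fell 1.54- and 1.72-fold.

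The Hox genes, which pattern the body axis in 4 clusters and are silenced by Polycomb in stem cells, were low in every library. Their summed level over all 39 genes was 18.3, 17.1 and 16.6 CPM in untreated and 37.5, 38.7 and 39.1 CPM in H373R libraries, 2.22 times as high, with 33, 35.8 and 33.8 CPM in FL and 26.2 and 29 CPM in EV auxin libraries. The summed level was higher in H373R cells in each of the clusters A, B, C and D, by 2.54, 2.09, 2.14 and 1.70 times, with no overlap with untreated libraries. Of the 39 genes 14 passed the count filter, which a low gene could do through the group in which it is high. Hoxb13 gave 1.96, 1.47 and 0.808 CPM in untreated and 4.9, 4.43 and 5.04 CPM in H373R cells (log2 fold change 1.75, SE 0.21, adjusted p = 8.83e-06), and Hoxc13 2.47 and 5.25 CPM.

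**Figure D5:**
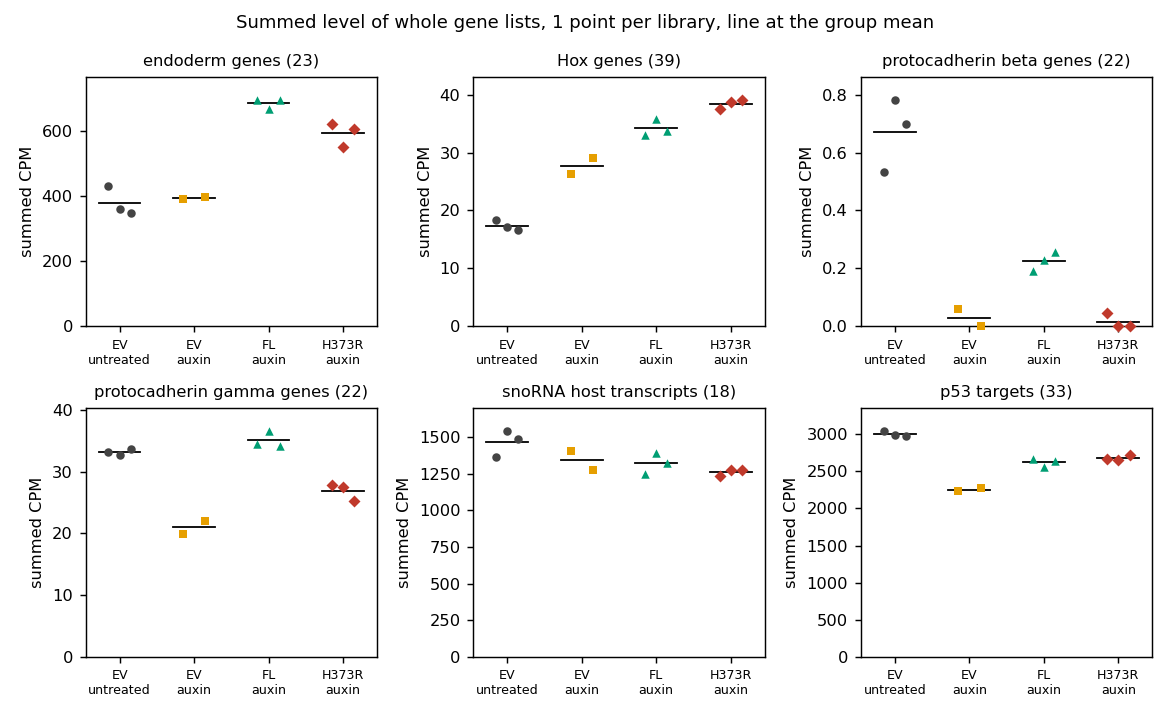
Each point is 1 library and each line a group mean of the summed CPM over all members of a list, with the number of members in parentheses; every y axis starts at 0. H373R libraries lie above untreated ones for endoderm and Hox genes and below them for the other 4 lists; for protocadherin beta genes 2 of the 3 H373R libraries are at 0.

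Clustered protocadherins, cell surface proteins whose promoters depend on CTCF, were largely lower in H373R cells, from low levels. The 22 beta genes together gave 16, 16 and 19 counts in the untreated libraries and 1, 0 and 0 in the H373R libraries, at least 4.74-fold lower, with 4, 3 and 5 counts in FL and 1 and 0 in EV auxin libraries. The 14 alpha genes were near 0 in all groups. Of the 22 gamma genes 16 passed the filter, which some could do through the groups where they are high, and 12 of them were lower and 1 higher. Pcdhga11 gave 4, 4.16 and 4.08 CPM in untreated and 0.688, 0.708 and 0.654 CPM in H373R cells (log2 fold change -2.57, SE 0.16, adjusted p = 1.75e-08), and Pcdhgb8 1.12 and 0.106 CPM; both were also below FL cells (2.68 and 0.892 CPM, adjusted p = 1.39e-05 and 0.00148). Pcdhga1 was at least 6.97-fold and Pcdhga7 at least 5.56-fold lower than in untreated cells. At the other end of the same cluster Pcdhgc3, a C-type gene, rose from 13.5, 12.8 and 13.1 CPM to 20, 19.2 and 17.7 CPM (log2 fold change 0.53, SE 0.075, adjusted p = 4.56e-05), and Pcdhga12 and Pcdhgc5 did not pass the test. These genes share their constant exons, so counts of single members are uncertain.

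Of 41 tested imprinted genes 15 were higher and 8 lower (median 0.15), and 22 and 5 with GC and length trends removed. Mest and Nnat, expressed from the paternal allele, rose from 24.7 ± 0.41 to 47.7 ± 2.17 CPM and from 7.05 ± 0.601 to 15.5 ± 0.688 CPM, and Plagl1 rose 3.67-fold; all were above FL cells too (adjusted p = 0.000109, 0.00118 and 0.00283). In the H19-Igf2 domain, where CTCF insulates the maternal Igf2 allele from shared enhancers, H19 gave 6.19, 4.5 and 4.26 CPM in untreated and 8.6, 8.49 and 9.46 CPM in H373R cells (log2 fold change 0.82, SE 0.15, adjusted p = 0.00039), and 4.33 CPM in FL and 4.13 CPM in EV auxin cells (adjusted p = 0.0015 and 0.000824). Igf2 did not pass the test against untreated cells (1.85 and 2.44 CPM) and was lower than in FL cells (4.06 CPM, adjusted p = 0.0311). In the Dlk1-Dio3 domain Dlk1 rose 1.35-fold beside Dio3, while the maternal transcripts Meg3 and Mirg fell 1.59- and 1.48-fold. Peg3, Snrpn, Gnas and Cdkn1c rose 1.41-, 1.36-, 1.33- and 1.51-fold, and Peg12 fell 2.4-fold. Allele of origin was not measured.

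Small nucleolar RNAs, which act in ribosomal RNA processing, are cut from longer host transcripts, of which 18 were listed. Of 16 tested host genes 11 were lower, none was higher and 5 were not called (median -0.51); without untreated replicate 1, 12 were lower and 1 higher. Snhg17 gave 26.4, 22 and 21.5 CPM in untreated and 4.3, 3.92 and 4.12 CPM in H373R cells (log2 fold change -2.50, SE 0.11, adjusted p = 4.38e-10), Zfas1 39.6, 32 and 31.8 CPM and 14.1, 12.6 and 16 CPM (log2 fold change -1.27, SE 0.096, adjusted p = 9.15e-08) and Snhg15 16.7 ± 1.84 and 7.96 ± 0.528 CPM. Gas5 and Snhg1 fell 1.41- and 1.53-fold. Snhg17 was also below FL cells (7.52 CPM, adjusted p = 0.000942) and stood at 4 CPM in EV auxin cells. Zfas1 stood at 13.5 CPM in FL cells and was below EV auxin cells (33.5 CPM, adjusted p = 7.44e-06).

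Signalling genes showed changes in both directions. Of 32 Wnt genes 12 were higher and 6 lower, and 10 and 11 with GC and length trends removed. Among the ligands 5 of 9 were higher and none lower, with Wnt7b from 8.69 ± 0.32 to 15.2 ± 0.877 CPM and Wnt4 from 1.15 to 2.34 CPM. The feedback genes parted: while Nkd2 fell, its paralog Nkd1 rose from 9.92, 8.52 and 9.66 CPM to 19.1, 19.4 and 19 CPM (log2 fold change 1.03, SE 0.074, adjusted p = 6.17e-08), Sfrp5 rose 2.47-fold, Znrf3 fell 1.33-fold, and Axin2 gave 25.1 and 22.7 CPM (adjusted p = 0.102). Of 15 Nodal genes 6 were higher and 1 lower, led by the inhibitors Lefty1, from 37.1 ± 5.2 to 68.5 ± 1.68 CPM, and Lefty2, from 57.9 ± 0.817 to 87.9 ± 1.28 CPM, with the transducer Foxh1 1.54-fold higher. In the FGF-ERK list 7 of 15 were higher and 5 lower: Fos and Dusp4 rose 1.74- and 1.61-fold, Etv5 and Egr1 fell 1.39- and 1.34-fold, and Spry4 fell from 109 ± 0.747 to 92.8 ± 0.621 CPM.

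Targets of p53 were more often lower than higher. Of 33 tested, 16 were lower and 6 higher (median -0.22), with the same counts without untreated replicate 1. Zmat3 gave 136, 139 and 138 CPM in untreated and 88.2, 79.7 and 86.2 CPM in H373R cells (log2 fold change -0.70, SE 0.056, adjusted p = 1.66e-07), Ccng1 fell from 307 ± 39.1 to 202 ± 2.41 CPM, Eda2r from 61 ± 7.4 to 35.5 ± 1.47 CPM and Btg2 from 90.6 ± 2.13 to 61.6 ± 2.1 CPM. Zfp365 fell 1.45-fold, Mdm2, the ubiquitin ligase of p53, 1.22-fold, and Rprm 4.1-fold from 1.62 CPM. Cdkn1a, the cell cycle inhibitor p21, gave 114 and 112 CPM (adjusted p = 0.804), above EV auxin cells at 66.1 CPM (adjusted p = 6.85e-06). Plk3, Sesn1 and Pltp rose 1.89-, 1.4- and 1.49-fold. Of 74 genes of cell cycle and replication 26 were lower and 7 higher, but their median was only -0.03. Over all tested genes 22.1% were lower and 22.3% higher. The counts of this list were 26 and 11 without untreated replicate 1, and 28 and 13 with GC and length trends removed. Cenpf, a kinetochore protein, fell from 499 ± 24.1 to 299 ± 28.9 CPM, E2f3 from 49.6 ± 1.72 to 33.2 ± 0.939 CPM, Rbl2, which encodes the pocket protein p130, 2.12-fold and the proliferation marker Mki67 1.33-fold, while Cdk1 and Ccnb1 did not pass the test. Of this list 16 were lower without untreated replicate 2 and 11 higher without untreated replicate 1.

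Metabolic lists showed small changes. Among all tested genes 22.3% were higher and 22.1% lower. In the reported fit the respiratory chain and ribosomal protein lists had smaller shares than these both ways, and the stress response list had similar ones. Of 34 genes of glycolysis and hypoxia 19 were higher and 3 lower (median 0.16), with Hk1 from 195 ± 12.3 to 291 ± 8.7 CPM, P4ha1 from 167 ± 6.21 to 234 ± 4.28 CPM and Ndrg1 from 76.3 ± 1.78 to 114 ± 1.5 CPM; 15 were higher with GC and length trends removed. Of 34 genes of sterol and fatty acid synthesis 11 were lower and 5 higher, with Scd2 from 907 ± 42.9 to 666 ± 6.25 CPM, Hmgcs1 from 401 ± 33.4 to 306 ± 2.71 CPM and Acaca 1.39-fold lower and Mvk 1.41-fold higher. Of 82 respiratory chain genes 12 were higher and 5 lower, and 29 and 10 without untreated replicate 1, while leaving out any other library of the 6 left 4 to 7 higher. Ndufb7 fell from 82.8, 53.9 and 57.2 CPM to 30.6, 27.6 and 33.1 CPM (log2 fold change -1.09, SE 0.13, adjusted p = 1.2e-05) and Ndufs8 rose 1.36-fold. With GC and length trends removed, 10 were higher and 17 lower. Of 81 cytosolic ribosomal protein genes 10 were higher and none lower, but 29 higher and 1 lower without untreated replicate 1, 1 to 4 higher without untreated replicate 3 or any 1 of the H373R libraries, and 6 higher and 13 lower with GC and length trends removed; Rps7 and Rps9 rose 1.15- and 1.12-fold, and the call for Rps9 was lost with the trends removed. Of 33 stress response genes 8 were higher and 8 lower, and 8 and 13 with GC and length trends removed; 5 were lower without H373R replicate 2. Trib3 and Edem1 rose 1.57- and 1.38-fold and Xbp1 fell 1.22-fold.

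The remaining lists moved in both directions, beside 22.3% higher and 22.1% lower among all tested genes. Of 25 tested interferon-stimulated genes 9 were higher and 4 lower: H2-D1 and H2-K1 rose 1.59- and 1.32-fold, and Ifit2 fell 2.77-fold. Of 28 germline genes 7 were higher and 2 lower (4 higher without H373R replicate 1, and 4 lower without untreated replicate 1), led by Mael, and Sycp3 and Syce1 rose 1.36- and 1.27-fold. Of 14 tested genes of the 2-cell-like state 3 were higher and 1 lower, and 0 to 1 higher without untreated replicate 1 or 3 or any 1 of the H373R libraries; Usp17lc, at 2.19-fold, rested on at most 17 counts in any of the 6 libraries, Dppa2 rose 1.17-fold and Dppa4 fell 1.12-fold. Cyp1a1, the classical target of the aryl hydrocarbon receptor, which indole compounds can engage, went from 0.599, 0.93 and 0.624 CPM to 1.46, 1.6 and 1.58 CPM (log2 fold change 1.14, SE 0.20, adjusted p = 0.000305), and of 11 tested genes of that list 4 were higher and 4 lower (2 lower without H373R replicate 3), among them Nqo1 and Nfe2l2, 1.32- and 1.19-fold higher, and Ahrr, the repressor of the receptor, 2.11-fold lower. Among 19 cadherins outside the clusters 7 were higher and 4 lower (2 lower without untreated replicate 3), with Cdh22 2.61-fold and Pcdh1 1.65-fold higher and Fat1 1.4-fold lower.

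As markers of another cell type that a culture could hold, 15 fibroblast genes were summed. Of the 8 that passed the filter 6 were higher, with Fn1 from 1106 ± 18.1 to 1385 ± 132 CPM, Vim from 111 ± 5.56 to 138 ± 5.91 CPM and Pdgfrb and Col1a1 1.66- and 1.31-fold higher, and the sum over the 15 was 1317, 1310 and 1274 CPM in untreated and 1785, 1587 and 1531 CPM in H373R libraries. Of the 15, Dcn, Lum, Postn, S100a4 and Fap had at most 2 counts in any library, and Prrx1 and Twist2 at most 4 and 10. The highest counts of the other 8 ran from 75 for Col3a1 to 35609 for Fn1. Of 12 markers of embryonic stem cells 6 were lower and 1 higher, Alpl falling from 194 ± 5.7 to 146 ± 2.07 CPM and Fgf4 from 221 ± 10.8 to 182 ± 1.41 CPM. The part of a shift in cell types in the changes of these lists was not tested.

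The libraries of FL and EV auxin cells place these values beside those of cells under auxin with full-length CTCF and of cells titled EV under auxin. Between H373R and FL cells, both under auxin, 979 genes differed (5.96%), 516 higher (3.14%) and 463 lower (2.82%) in H373R cells, and between H373R and EV auxin cells 3570 (21.7%). The count against FL cells was 2322 without untreated replicate 1, which enters through the shared estimate of spread, 617, 527 and 510 without H373R replicate 1, 2 or 3, and 555 and 534 without FL replicate 2 or 3. The count against EV auxin cells was 5397 without untreated replicate 1 and 1502 and 1536 without EV auxin replicate 1 or 2. The H373R libraries enter all of these comparisons, so the counts are not independent. Efhc2, a gene of motile cilia, gave 8.09, 11.8 and 9.7 CPM in untreated, 22.9, 23.5 and 26.3 CPM in FL, 9.92 and 8.47 CPM in EV auxin and 3.74, 3.92 and 3.35 CPM in H373R libraries, and so was lowest in H373R cells and highest in FL cells (H373R against FL log2 fold change -2.73, SE 0.13, adjusted p = 2.94e-08). Nsmce4a, of the SMC5-SMC6 complex, gave 119.8, 85.9, 46.8 and 48.4 CPM in the same order, and Dph7, of the diphthamide pathway, 27.2, 16.1, 4.42 and 6.62 CPM. Spry4, an inhibitor of FGF signalling, averaged 109 CPM in untreated, 146 CPM in FL, 103 CPM in EV auxin and 92.8 CPM in H373R cells, and so was lowest in H373R cells (adjusted p = 3.32e-07 against FL and 0.0322 against EV auxin). In the other direction AU018091 gave 162 CPM in untreated and 162 CPM in FL cells, and 267 CPM in EV auxin and 261 CPM in H373R cells. Adgrg1, an adhesion receptor, and Aqp3, a water and glycerol channel, stood at 17.6 and 60.5 CPM in H373R cells against 9.54 and 38.8 CPM in FL and 8.37 and 34.6 CPM in untreated cells (against FL adjusted p = 6.56e-06 and 1.35e-05).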

How the data were processed

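RNA of mouse embryonic stem cells was sequenced in 11 libraries made with a kit that keeps strand, per the labels' protocols. The deposited table gives raw counts per gene symbol, and a second deposited table gives TPM, which the authors scaled to gene length and depth. The submitters' processing notes name featureCounts, Subread 2.0.3 and DESeq2 with the mm10 and GRCm38 builds; their roles and the use of strand in counting are not given in the sources used here, so antisense and overlapping genes are uncertain. Of 55228 symbols 24727 had no count. Counts were fitted with edgeR 4.0.16 (R 4.3.3): library sizes were scaled by TMM, filterByExpr kept 16420 genes, each of the 4 groups had its own mean, and contrasts were tested by quasi-likelihood. All p-values were adjusted over these genes by the Benjamini-Hochberg method, with a threshold of 0.05. Groups came from the labels. Every p-value in the text is from this fit. SE is the size of the log2 fold change over the square root of F.

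Named genes were Ctcf; the 12 largest rises and 12 largest falls with a mean of at least 1 log2 CPM and no overlap between groups (symbols of predicted genes left out); the 8 called genes of highest TPM with at least 2-fold change; up to 3 genes of smallest p per list; genes with 3 counts or fewer in every library of 1 group and at least 1 CPM in the other; and up to 4 genes each way with the smallest p against FL. Some genes that the rule names are not reported here. Other genes were chosen after their values were seen, and the members and lists were chosen with earlier results of these data known. A fold against a group at 3 counts or fewer is a bound, against 3 counts per library. Positions, GC content and exon length are from GENCODE M21 (GRCm38), which held 16242 of the tested symbols (98.9%), and promoters from RefSeq (GRCm38.p6). In simulated counts for this comparison, with 200 of 16420 genes changed 2-fold, edgeR recovered 95.5% with 9 false calls. The changed genes were drawn only from those above a minimum mean count. The simulation held far fewer changed genes than were called here, and no deviation with GC content like that of untreated replicate 1. It therefore does not measure how well smaller changes or low genes were called. DESeq2 1.42.0, limma 3.58.1 on log2(TPM + 1), other scalings and filters, a replicate block, removal of trends with GC content and length, and leaving out each library were the alternatives.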

Additional observations from a re-analysis of the deposited data

How the results depend on the processing

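Under 25 alternatives none of the 197 named genes called between H373R and untreated cells changed direction. Without untreated replicate 1 the calls for Dppa2, Usp17lc and Mixl1 were lost, and with GC and length trends removed 3 calls were lost, among them Pds5a and Rps9; 8 calls in all were lost when some library was left out. Some genes not called changed sign around 0. With trends removed the log2 fold changes of Ctcf, Azi2 and Dhx36 became 0.024, 0.016 and 0.22. Leaving out 1 library gave -0.10 to 0.025 for Ctcf, -0.12 to 0.025 for Lamtor2, -0.15 to 0.028 for Dhx36 and -0.056 to 0.027 for Cdkn1a. With trends removed Dhx36 passed the test (adjusted p = 3.03e-05); the cause was not tested.

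Counts for H373R against untreated cells stayed within 1.5 times under every alternative but a fold minimum: requiring 2-fold left 840 genes, 429 higher and 411 lower. RLE scaling gave 7288 and DESeq2 6480. Leaving out 1 library gave 6012 to 8927 genes in all, 2884 to 4403 higher, 3023 to 4524 lower and 800 to 962 at least 2-fold. The count of genes changed at least 2-fold was 447 with at least 10 counts required in every library, which tests fewer low genes, and 345 and 310 on log2(TPM + 1) with and without a TPM filter, where the pseudocount shrinks low genes. Against FL cells the count was 1815 with only the libraries compared, 436 at an adjusted p under 0.01, 78 with a 2-fold minimum, 588 on log2(TPM + 1) without a TPM filter and 2191 with trends removed, and 510 to 2322 with 1 library left out. Against EV auxin cells it was 5909, 1843, 142 and 2335 under the first 4 of these, and 1502 to 5397 with 1 library left out, where EV auxin kept 1 library assumed to vary like the others. The cause of the shifts with the libraries fitted and with trends removed was not tested.

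The titles number the replicates, but nothing says that a number marks a shared day or culture. Deviations of H373R and untreated libraries with the same number correlated at 0.006, 0.11 and -0.087, and not every library correlated best with its own number. With the replicate number as a block 7436 genes were called against untreated cells, 942 against FL and 3532 against EV auxin cells, and 1 named call, Mixl1, was lost (adjusted p = 0.0527). Depth limits the genes under 1 CPM most: Foxc1, called at a 5-fold size, rested on at most 7 counts in an untreated library.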

Other observations

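Transcript classes moved unequally. Among 242 tested antisense transcripts of GENCODE M21, 15 were higher and 64 lower in H373R cells (median log2 fold change -0.25), and among 363 long intergenic non-coding RNAs 35 were higher and 77 lower (median -0.19). Over all tested genes 22.3% were higher and 22.1% lower. Called in either direction were 32.6% of the antisense transcripts and 30.9% of the long intergenic RNAs, against 44.4% of all tested genes. Loci annotated as still to be experimentally tested gave 1 higher and 29 lower of 83 (median -0.41). Protein-coding genes were even, 3508 higher and 3291 lower of 14264 (median 0.014). Processed pseudogenes, whose reads can be shared with their parent genes, gave 50 higher and 32 lower of 863. Without untreated replicate 1 the medians of antisense and long intergenic transcripts were -0.27 and -0.19. Their medians for H373R over FL cells were 0.036 and 0.067, of the opposite sign, and over EV auxin cells -0.137 and -0.143.

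Chromosomes differed in the balance of calls, which over all tested genes was 22.3% higher and 22.1% lower. Chromosome 7 had 382 genes higher and 182 lower (median 0.10), and chromosome 11 had 212 higher and 427 lower (median -0.081), the highest and lowest medians among autosomes. Chromosomes 15 and 19 leaned the way of chromosome 7, with 189 higher and 103 lower and 146 higher and 87 lower, and chromosomes 8 and 1 the way of chromosome 11, with 145 higher and 245 lower and 181 higher and 283 lower. Against FL cells the medians of chromosomes 7 and 11 were -0.026 and 0.038, of the opposite sign. Against EV auxin cells they were 0.0585 and -0.111, of the same sign as against untreated cells. No test was made of these differences.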
